A study of Camelina sativa with 12 samples.

Results

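Glycolate oxidase was followed through 3 genes of the camelina genome, Csa11g030110, Csa06g046560 and Csa10g026850, which lie on chromosomes 11, 6 and 10 by their identifiers. They are the 3 members of 49932 genes listed in the deposited table, and all 3 were among the 49928 genes tested. The study's supplementary sheets give each of them the same Arabidopsis counterpart, so they are described here as homeologues, the copies that a hexaploid genome carries of 1 ancestral gene. Messenger RNA was sequenced from whole shoots and roots of *C. sativa* DH55, a doubled haploid line, at an age of 28 days. Salt-treated plants had received NaCl at 192 mM (15 dS per m) for 21 days by the sample labels (the study's text gives a later start of salt for its growth experiments), and control plants had tap water. Each of the 4 groups, salt-treated shoots, control shoots, salt-treated roots and control roots, held 3 biological replicates, which makes 12 libraries of a single genotype at a single age and salt level.

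Glycolate oxidase is a flavin enzyme of the peroxisome. It oxidises glycolate to glyoxylate and releases hydrogen peroxide, which catalase removes in the same organelle. In leaves this is the peroxisomal step of photorespiration, the pathway that recovers carbon after Rubisco has fixed oxygen in place of carbon dioxide. In Arabidopsis the enzymes of leaf photorespiration are chiefly GOX1 and GOX2, whereas the family member to which the 3 camelina genes were matched, GOX3, has been linked to the oxidation of L-lactate in roots.

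Levels are given in CPM, read counts that the authors scaled to library size, normalized further and rounded to whole numbers. The smallest step is thus 1 CPM, and no gene length enters a level. Library totals were 1077479 to 1112593 CPM in salt-treated shoots, 1081955 to 1117956 in control shoots, 891862 to 938888 in salt-treated roots and 882288 to 899673 in control roots. The depth of sequencing is unknown, so values carry no counting interval. The tissue labels were checked against 14 genes of the Rubisco small subunit and of chlorophyll-binding and photosystem I proteins. Their summed level was 11228 to 13758 CPM in salt-treated shoots and 25928 to 28390 in control shoots, against 77 to 204 in salt-treated roots and 13 to 30 in control roots. Of these 14 markers, 7 were at 0 in every salt-treated root library and 10 in every control root library. EIR1, a root auxin transporter and the 1 root marker analysed here, was at 1 to 2 CPM in salt-treated shoots and 1 CPM in control shoots, against 4 CPM in salt-treated roots and 11 to 18 CPM in control roots. Replicate 2 of the salt-treated shoots stood apart, being the lowest salt library for 3480 (64.5%) of the 5394 genes called higher in salt-treated shoots, and calls that change without it are given below.

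All 3 glycolate oxidase genes were up-regulated in salt-treated shoots, where their summed level was 6.70 times that of control shoots. Csa11g030110 had 50, 17 and 38 CPM in salt-treated shoots (replicates 1 to 3, mean 35 ± 16.7, SD, n = 3), against 4, 5 and 3 CPM in control shoots (4 ± 1). Csa06g046560 had 53, 31 and 52 CPM in salt-treated shoots (45.3 ± 12.4), against 6, 5 and 6 CPM in control shoots (5.67 ± 0.577). Csa10g026850 had 16, 14 and 17 CPM in salt-treated shoots (15.7 ± 1.53), against 4, 5 and 5 CPM in control shoots (4.67 ± 0.577). No salt library overlapped a control library for any of the 3 genes, and replicate 2 was the lowest salt library for each of them. The spread was widest for Csa11g030110, where replicate 2 had 17 CPM and the other two had 38 and 50 CPM.

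**Figure D1:**
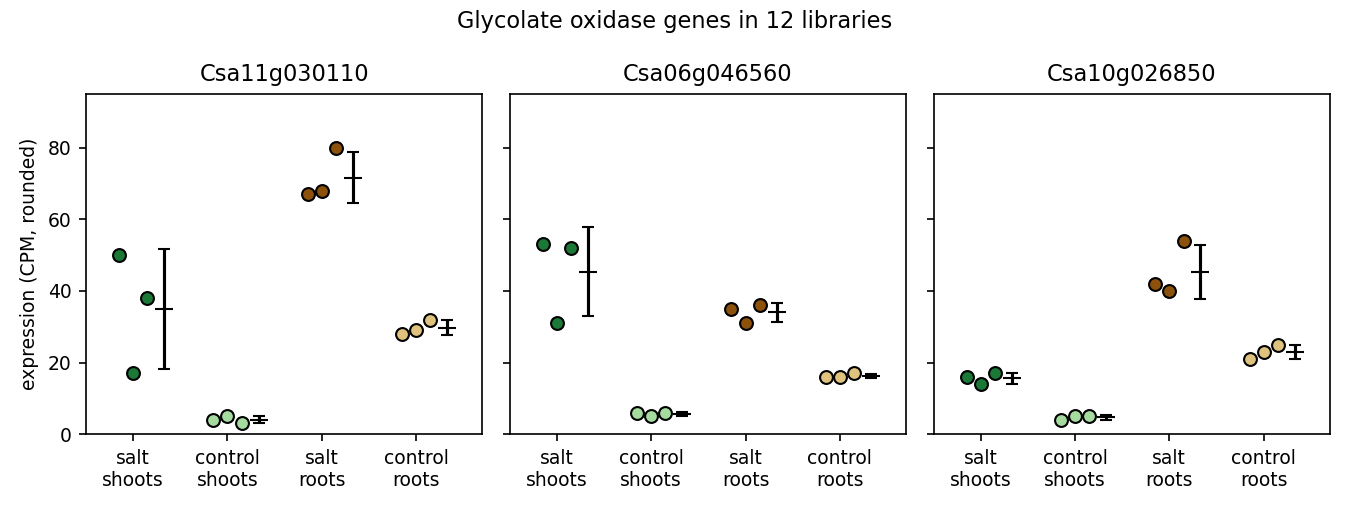
Level in CPM (vertical axis) of Csa11g030110, Csa06g046560 and Csa10g026850 in each library (points) of the 4 groups, with the mean and SD of 3 libraries. The control shoots sit lowest, at 3 to 6 CPM for all 3 genes, and the salt-treated roots reach 80 CPM for Csa11g030110.

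On the scale of log2(CPM + 0.5), which understates the change of genes with low levels, the rise was 2.87 for Csa11g030110 (SE 0.31, limma, Benjamini-Hochberg adjusted p = 1.89e-05). It was 2.86 for Csa06g046560 (SE 0.17, adjusted p = 4.18e-07) and 1.65 for Csa10g026850 (SE 0.13, adjusted p = 2.63e-06). Calls required an adjusted p no higher than 0.05 together with a log2 change larger than 1 in either direction, and by that rule 10.8% of all genes tested were called higher in salt-treated shoots. Libraries that did not overlap, with salt higher, were found for 25.2% of the genes tested. The log2 changes of Csa11g030110 and Csa06g046560 were each above those of 98.3% of the genes tested. That of Csa10g026850 was above 94.6%, with a median of 0 over all genes. The study had named these 3 genes as up-regulated in shoots from these same libraries. Their shoot calls and ranks are thus not independent evidence of a rise. Without replicate 2 of the salt-treated shoots the log2 changes were 3.32, 3.11 and 1.72 for Csa11g030110, Csa06g046560 and Csa10g026850. In control shoots the members were at 3 to 6 CPM, so a single step of rounding is a sizeable part of the level there. All 3 were called in shoots under every alternative given in the closing section. The main fit pooled the spread of all 4 groups. With shoots fitted alone, the adjusted p (limma) was 0.00497 for Csa11g030110, 0.000853 for Csa06g046560 and 0.00067 for Csa10g026850.

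In salt-treated roots the same 3 genes were also higher than in control roots, by a smaller factor. Csa11g030110 had 67, 68 and 80 CPM in salt-treated roots (71.7 ± 7.23), against 28, 29 and 32 CPM in control roots (29.7 ± 2.08). Csa06g046560 had 35, 31 and 36 CPM in salt-treated roots (34 ± 2.65), against 16, 16 and 17 CPM in control roots (16.3 ± 0.577). Csa10g026850 had 42, 40 and 54 CPM in salt-treated roots (45.3 ± 7.57), against 21, 23 and 25 CPM in control roots (23 ± 2). Every salt library lay above every control library for each of the 3 genes, as for 25.3% of all genes tested.

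Only 2 of the 3 genes were called in roots, where 8.22% of the genes tested were called higher and 7.85% lower. The log2 change was 1.26 for Csa11g030110 (95% interval 0.58 to 1.93, limma adjusted p = 0.00608) and 1.03 for Csa06g046560 (adjusted p = 0.000575). For Csa10g026850 it was 0.95 (95% interval 0.67 to 1.24, adjusted p = 0.000153), which passed the limit on p but not that on size. These 3 values lie close to the size limit, and the count of called genes moved with single libraries. It was 1 without replicate 3 of the salt-treated roots, where Csa06g046560 had a log2 change of 0.99. It was 3 without replicate 1 or 2 of the salt-treated roots or replicate 3 of the control roots, where Csa10g026850 reached 1.00, 1.04 and 1.01. Csa11g030110 and Csa06g046560 were called in both tissues, as were 4.26% of the genes tested.

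Shoot RNA in the root samples was looked at beside this result. The summed level of the 14 photosynthetic markers was 6.93 times higher in salt-treated than in control roots, and it was 1.06% of that in salt-treated shoots. The summed level of the glycolate oxidase genes was 82 CPM higher in salt-treated roots than in control roots, and the whole level in salt-treated shoots was 96 ± 30.1 CPM. The part of shoot RNA in the root result was not tested. In bulk tissue, fewer cells of a type and less RNA per cell cannot be told apart.

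The salt effect was larger in shoots than in roots for 2 of the 3 genes by a test of the difference itself. The log2 change in shoots minus that in roots was 1.62 for Csa11g030110 (95% interval 0.66 to 2.57, limma adjusted p = 0.0204). For Csa06g046560 the difference was 1.82 (95% interval 1.29 to 2.36, adjusted p = 0.000493). For Csa10g026850 it was 0.69 (95% interval 0.28 to 1.102, adjusted p = 0.0206), again past the limit on p and not that on size. Of all genes tested, 6.25% were called with a higher log2 change in shoots and 6.09% with a lower one. The call of Csa11g030110 rested on single libraries, since its adjusted p was 0.0538 without replicate 3 of the salt-treated shoots, 0.0563 without replicate 3 of the control shoots and 0.0508 without replicate 3 of the control roots. Its log2 difference over the omission of single libraries was 1.30 to 2.06. Since the study named the 3 genes for a rise in these shoot libraries, the differences are not independent of that choice.

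**Figure D2:**
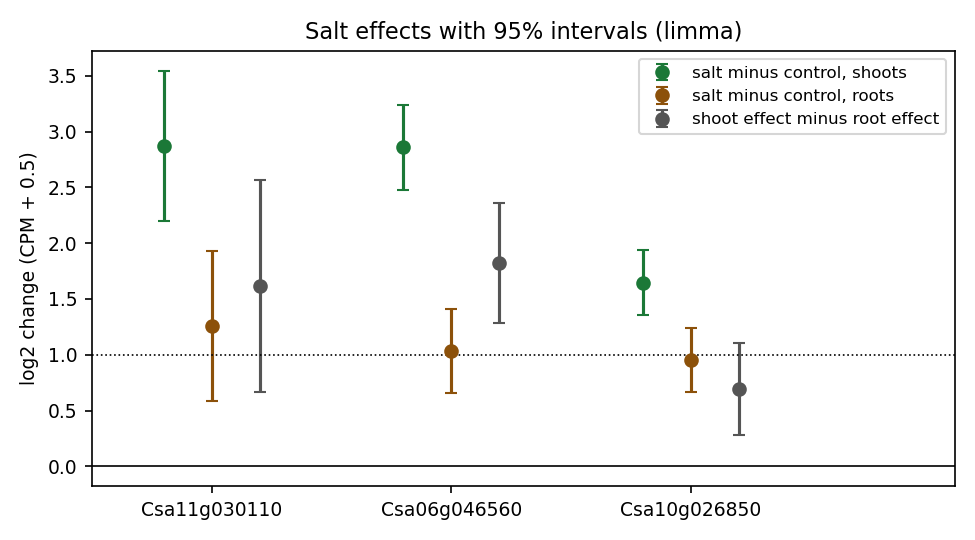
Log2 change with salt (vertical axis) in shoots and in roots for each glycolate oxidase gene, with 95% intervals and a dotted line at the size limit of 1. All shoot values lie above the limit, and the root values lie between 0.95 and 1.26.

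Without salt, roots held more message of these 3 glycolate oxidase genes than shoots. Camelina counterparts of GOX1 and GOX2 were not analysed here. The members summed to 14, 15 and 14 CPM in control shoots, against 65, 68 and 74 CPM in control roots, and the mean in control roots was 4.82 times that in control shoots. The log2 change of control shoots over control roots was -2.77 for Csa11g030110 (limma adjusted p = 9.34e-06), -1.45 for Csa06g046560 (adjusted p = 1.7e-05) and -2.19 for Csa10g026850 (adjusted p = 3.77e-08). All 3 were called lower in control shoots, as were 15.3% of the genes tested, and none overlapped, as for 35.3% of the genes tested. In control shoots Csa11g030110 stood above 15.9 to 29.8% of all genes by CPM, which is not per length. In control roots it was above 85.2 to 87.3%. Csa06g046560 stood above 29.8 to 35.9% in control shoots and 71.2 to 73.2% in control roots. For Csa10g026850 the ranges were 23.2 to 29.8% in control shoots and 78.7 to 82.7% in control roots. Genes tied at the same whole CPM were not counted as below.

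With salt, the gap between the tissues was narrower in sum and the 3 genes no longer shared 1 order. The members summed to 119, 62 and 107 CPM in salt-treated shoots, against 144, 139 and 170 CPM in salt-treated roots, and the mean in salt-treated roots was 1.57 times that in salt-treated shoots. Csa11g030110 was lower in salt-treated shoots than in salt-treated roots by a log2 change of -1.15 (limma adjusted p = 0.0065), and Csa10g026850 by -1.495 (adjusted p = 1.26e-06). These 2 genes did not overlap between the tissues, and 14.7% of the genes tested were called lower in salt-treated shoots, while 29.8% were lower with no overlap. Csa06g046560 had 53, 31 and 52 CPM in salt-treated shoots, against 35, 31 and 36 CPM in salt-treated roots. Its log2 change was 0.37 (95% interval -0.01 to 0.75, adjusted p = 0.0811), and the libraries overlapped. Without replicate 2 of the salt-treated shoots the log2 change of Csa11g030110 was -0.71, which is under the size limit, so that only Csa10g026850 was called.

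The order of the 4 groups therefore differed from gene to gene. Csa11g030110 had its highest mean in salt-treated roots, followed by salt-treated shoots and control roots, whose libraries overlapped (17 to 50 CPM in salt-treated shoots, 28 to 32 CPM in control roots), and its lowest in control shoots. Csa06g046560 had overlapping levels in salt-treated shoots and salt-treated roots, both above control roots, with control shoots lowest. Csa10g026850 was highest in salt-treated roots, and its salt-treated shoots (14 to 17 CPM) stayed below its control roots (21 to 25 CPM). Salt-treated shoots were not tested against control roots.

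The make-up of the summed message of these glycolate oxidase genes was described by the share of each homeologue in each library. Levels were not divided by gene length, and how reads matching more than 1 homeologue were assigned is not given in the sources used, so a share is read only against the same share in another group. Csa10g026850 made up 13.5, 22.6 and 15.9% of the sum in salt-treated shoots, against 28.6, 33.3 and 35.7% in control shoots. Csa06g046560 made up 44.5, 50.0 and 48.6% in salt-treated shoots, against 42.9, 33.3 and 42.9% in control shoots. Csa11g030110 made up 42.0, 27.4 and 35.5% in salt-treated shoots, against 28.6, 33.3 and 21.4% in control shoots. The share of Csa10g026850 was lower in each salt-treated shoot library than in any control one, and that of Csa11g030110 overlapped. That of Csa06g046560 was higher in each, by little (44.5% against 42.9% at the closest). The control sums were 14 to 15 CPM, so a rounding step of 1 CPM is larger than that gap.

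**Figure D3:**
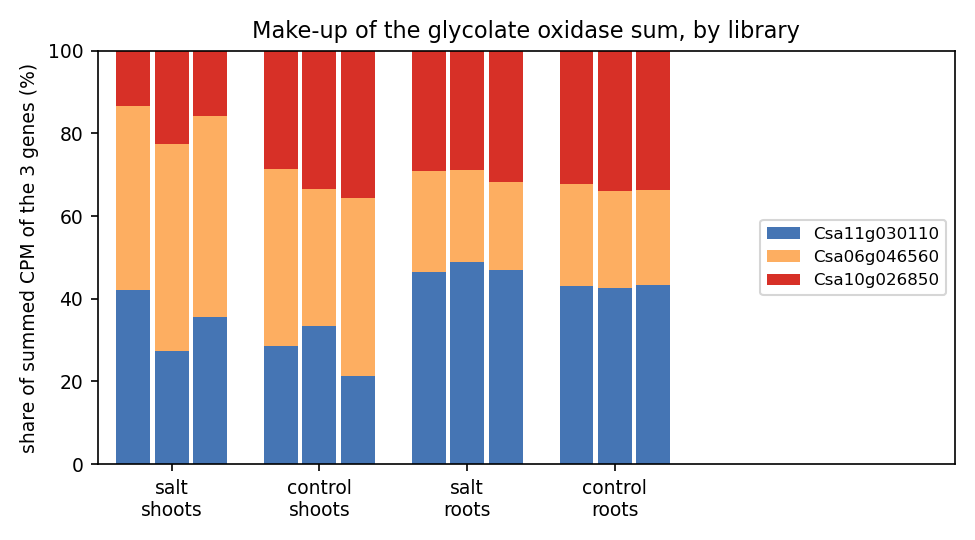
Share in percent (vertical axis) of each glycolate oxidase gene in the summed CPM of the 3 genes, with 1 stacked bar per library. The share of Csa10g026850 is 13.5 to 22.6% in salt-treated shoots, 28.6 to 35.7% in control shoots, 28.8 to 31.8% in salt-treated roots and 32.3 to 33.8% in control roots.

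In roots the shares moved less. Csa11g030110 made up 47.5 ± 1.26% in salt-treated roots and 43.0 ± 0.308% in control roots, without overlap. Csa10g026850 made up 29.9 ± 1.62% in salt-treated roots and 33.3 ± 0.864% in control roots, again without overlap, and Csa06g046560 made up 22.6 ± 1.59% in salt-treated roots and 23.7 ± 0.835% in control roots, with overlap. In control plants the share of Csa06g046560 was 39.7 ± 5.50% in shoots and 23.7 ± 0.835% in roots, while that of Csa11g030110 was 27.8 ± 5.99% in shoots and 43.0 ± 0.308% in roots.

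The homeologues' relative levels with and without salt were compared on the log2 ratio of each pair within a library, with an exact two-sided permutation test of salt against control labels within each tissue. The labels were permuted in shoots and roots independently, which treats the libraries of the tissues as unrelated. The smallest p that this test can give is 0.005, and the 3 pairs were adjusted together. The log2 ratio of Csa11g030110 to Csa10g026850 was 0.76 higher with salt over both tissues (exact p = 0.005, adjusted p = 0.015). The difference was 1.23 in shoots and 0.30 in roots, and the salt and control libraries overlapped in neither tissue. The log2 ratio of Csa06g046560 to Csa10g026850 was 0.64 higher with salt (exact p = 0.03, adjusted p = 0.045), at 1.21 in shoots and 0.08 in roots, where the libraries overlapped. The ratio of Csa11g030110 to Csa06g046560 differed by 0.12 (exact p = 0.495), with 0.02 in shoots and 0.22 in roots. The replicate numbers were taken to pair salt-treated shoots with salt-treated roots. Same-numbered shoot and root libraries were then permuted together, a test added after the data were seen. The exact p was 0.1 for each of the first 2 pairs (adjusted p = 0.15). This is the smallest exact p that its 20 arrangements allow. The test could therefore not reach 0.05 and does not decide whether either call holds under pairing. Within 1 tissue the smallest exact p is 0.1 as well, so that neither tissue can pass alone. Without replicate 2 or 3 of the control shoots the adjusted p of the first pair was 0.0525 or 0.075. The second pair passed its limit by little and missed it when any of 6 libraries was left out, namely replicates 2 and 3 of the control shoots (adjusted p = 0.0525 and 0.075), replicates 1 and 2 of the salt-treated roots (0.075 and 0.0525) and replicates 2 and 3 of the control roots (0.0525 and 0.06).

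Catalase 2, whose product breaks down the hydrogen peroxide that glycolate oxidase forms, was up-regulated in salt-treated shoots through all 3 of its listed copies. This gene list and those below were taken from the study, which picked them on these same libraries, so their counts are not independent evidence of a direction. Csa10g007080 had 985, 523 and 1053 CPM in salt-treated shoots, against 52, 72 and 89 CPM in control shoots (log2 change 3.55, limma adjusted p = 1.92e-06). The other copies rose in shoots as well, with log2 changes of 3.02 for Csa12g008510 (adjusted p = 6.01e-06) and 1.98 for Csa11g006790 (adjusted p = 2.02e-05). In roots Csa10g007080 had 47, 33 and 45 CPM in salt-treated roots, against 15, 17 and 21 CPM in control roots (log2 change 1.21, adjusted p = 0.00359). The difference between the tissues was 2.34 for Csa10g007080 (adjusted p = 0.0016) and 2.35 for Csa12g008510 (adjusted p = 0.00161), and 0.97 for Csa11g006790 (adjusted p = 0.0375), which is under the size limit. Csa11g006790 was called without replicate 2 of the salt-treated shoots (difference 1.15, adjusted p = 0.018) and on 3 other single omissions. In control plants the tissue order differed between these sets of genes. Each catalase 2 gene was called higher in control shoots than in control roots, as were 17% of the genes tested. Each of the 3 glycolate oxidase genes was called lower, as were 15.3%. Counterparts of GOX1 and GOX2 were not compared.

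The other listed genes of photorespiration that were analysed fell in salt-treated shoots, each enzyme being followed through 1 gene. The study had listed these genes because they changed in these libraries, and other copies of the enzymes were not analysed here. Phosphoglycolate phosphatase, which forms glycolate from the product of Rubisco's oxygenation reaction, was represented by Csa11g076990. It had 5, 7 and 6 CPM in salt-treated shoots, against 18, 20 and 19 CPM in control shoots (log2 change -1.60, limma adjusted p = 4.41e-06). Glyoxylate reductase 2 (Csa17g023400), which turns glyoxylate back into glycolate, had 6, 11 and 6 CPM in salt-treated shoots, against 30, 29 and 30 CPM in control shoots (log2 change -1.94, adjusted p = 0.000161). The glycine cleavage H protein (Csa03g036840), a carrier of the mitochondrial step that follows, had 12, 20 and 13 CPM in salt-treated shoots, against 53, 56 and 58 CPM in control shoots (log2 change -1.89, adjusted p = 5.85e-06). Of the 6 listed genes analysed here, the 3 catalase 2 genes were called higher and these 3 lower in shoots, where 8.87% of the genes tested were called lower. In roots 2 catalase 2 genes were called higher and 4 genes were not called. The root log2 change of Csa11g006790 was 1.00, and 1 gene was called in roots without replicate 3 of the salt-treated roots or replicate 1 or 2 of the control roots. The median log2 change of the 6 genes was 0.19 in shoots and 0.33 in roots, against 0 over all genes in both.

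Peroxisomal genes of fatty acid and acetate metabolism were looked at because they share the organelle with glycolate oxidase. All 9 analysed here were called higher in salt-treated shoots, and 3 of them were called higher in salt-treated roots, with medians of 2.11 and 0.82 on the log2 scale. Over all genes tested, 10.8% were called higher in shoots and 8.22% in roots. The difference between the tissues was called for 7 of them, against 6.25% of all genes tested. Over single omissions that count was 4 (without replicate 1 of the salt-treated shoots) to 8 (without replicate 2, where Csa05g008770 had 1.08, adjusted p = 0.03). Acyl-CoA oxidase 1, the entry step of peroxisomal fatty acid oxidation, had log2 changes of 2.11, 1.96 and 1.93 in shoots for Csa12g050960, Csa10g028750 and Csa11g032960. Citrate synthase 3, the peroxisomal form of that enzyme, rose by 3.01 in shoots for Csa05g008770 and 2.40 for Csa06g048940. Its remaining copy, Csa04g059380, had 27, 1 and 14 CPM in salt-treated shoots, against 0, 0 and 2 CPM in control shoots (log2 change 3.30, limma adjusted p = 0.0457), and those libraries overlapped. Its call was lost without any 1 of 7 libraries, namely replicates 1 and 3 of the salt-treated shoots, 1 and 2 of the control shoots, 3 of the salt-treated roots and 1 and 2 of the control roots (adjusted p = 0.0565 to 0.177). Replicate 2 of the salt-treated shoots was the lowest salt library for each of 15 genes, the 3 glycolate oxidase, 3 catalase 2 and 9 peroxisomal genes; its part in these results was not tested beyond leaving it out.

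**Figure D4:**
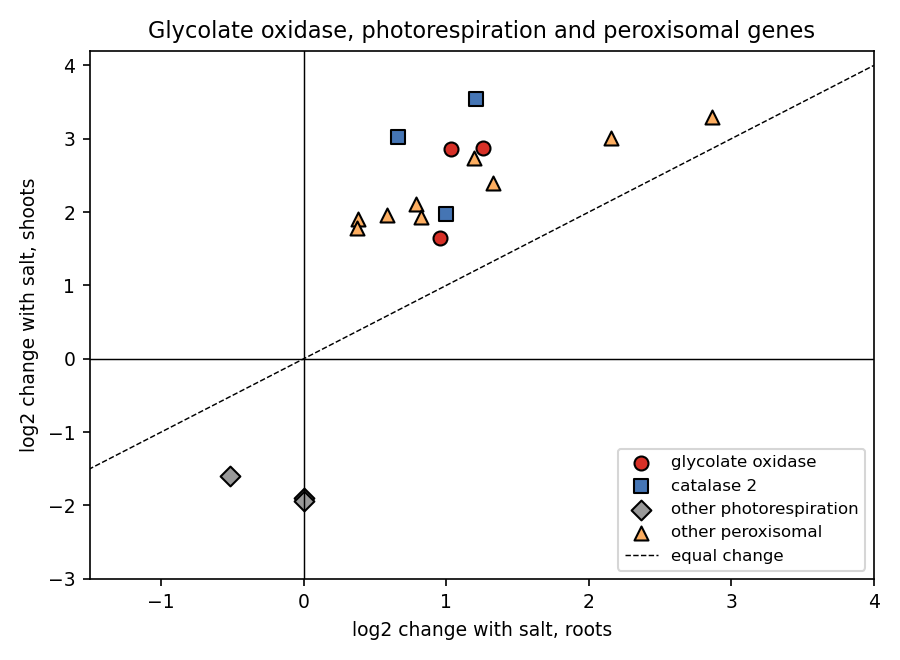
Log2 change with salt in roots and in shoots for each gene of the glycolate oxidase, photorespiration and peroxisomal lists, 1 point per gene. Glycolate oxidase lies at 1.65 to 2.87 in shoots and 0.95 to 1.26 in roots, near the peroxisomal genes, while 3 photorespiration genes lie below 0 in shoots.

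The acyl-activating enzyme 7 gene Csa15g022860, which in Arabidopsis activates acetate in the peroxisome, had a profile near that of the glycolate oxidase genes. It had 51, 25 and 52 CPM in salt-treated shoots, against 6, 5 and 6 CPM in control shoots, and 37, 29 and 40 CPM in salt-treated roots, against 14, 15 and 16 CPM in control roots. Pearson's r between its log2 values and the mean log2 value of the glycolate oxidase genes was 0.92 over the 12 libraries, which share 4 groups. Of 43083 genes ranked by this measure it stood at 1348, so many genes were closer.

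The profiles most like that of the glycolate oxidase genes belonged to Csa07g011780 and Csa09g092430, with r = 0.992 and 0.991, which the sources used here do not annotate. Csa07g011780 averaged 13.7 CPM in salt-treated shoots and 4.67 in control shoots, and 19 CPM in salt-treated roots and 11 in control roots. The highest ranked gene with a name was Csa05g044830, an NAD(P)-linked oxidoreductase, at rank 10 (r = 0.987). It averaged 158 ± 44.97 CPM in salt-treated shoots and 31.7 ± 3.06 in control shoots, and 212 ± 33.9 CPM in salt-treated roots and 97 ± 1.73 in control roots. At the other end, phosphoglycolate phosphatase (Csa11g076990) stood at rank 43082 with r = -0.98. Among the members, r over the 12 libraries was 0.95 for Csa11g030110 and Csa10g026850, 0.88 for Csa11g030110 and Csa06g046560, and 0.75 for Csa06g046560 and Csa10g026850. Within a tissue, over 6 libraries, the same correlations were 0.96 to 0.99 in shoots and 0.98 to 0.99 in roots.

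In the table each glycolate oxidase gene is followed by a gene of 9-cis-epoxycarotenoid dioxygenase 2 (NCED2), an enzyme of abscisic acid synthesis. The NCED2 genes were all called higher in salt-treated roots but had other levels in shoots than their neighbours. Csa11g030120 had 13, 7 and 8 CPM in salt-treated roots and was listed at 0 in the other 9 libraries (limma adjusted p = 3.28e-07 in roots). Csa06g046570 had 7, 5 and 4 CPM in salt-treated roots and was listed at 0 in control roots (adjusted p = 2.46e-05). Csa10g026860 had 8, 8 and 7 CPM in salt-treated roots, against 1, 1 and 2 CPM in control roots (log2 change 2.20, adjusted p = 0.00347). In shoots the NCED2 genes stood at 0 or 1 CPM in every library, with or without salt, whereas the glycolate oxidase genes beside them reached 14 to 53 CPM in salt-treated shoots. For Csa06g046570 the values 0, 1 and 1 in salt-treated shoots, against 0, 0 and 0 in control shoots, passed the limits (adjusted p = 0.0328), although the libraries overlapped. That call was lost without replicate 2 or 3 of the salt-treated shoots (adjusted p = 0.111 and 0.126) and without replicate 1, 2 or 3 of the control shoots (adjusted p = 0.0718, 0.0733 and 0.0711).

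**Figure D5:**
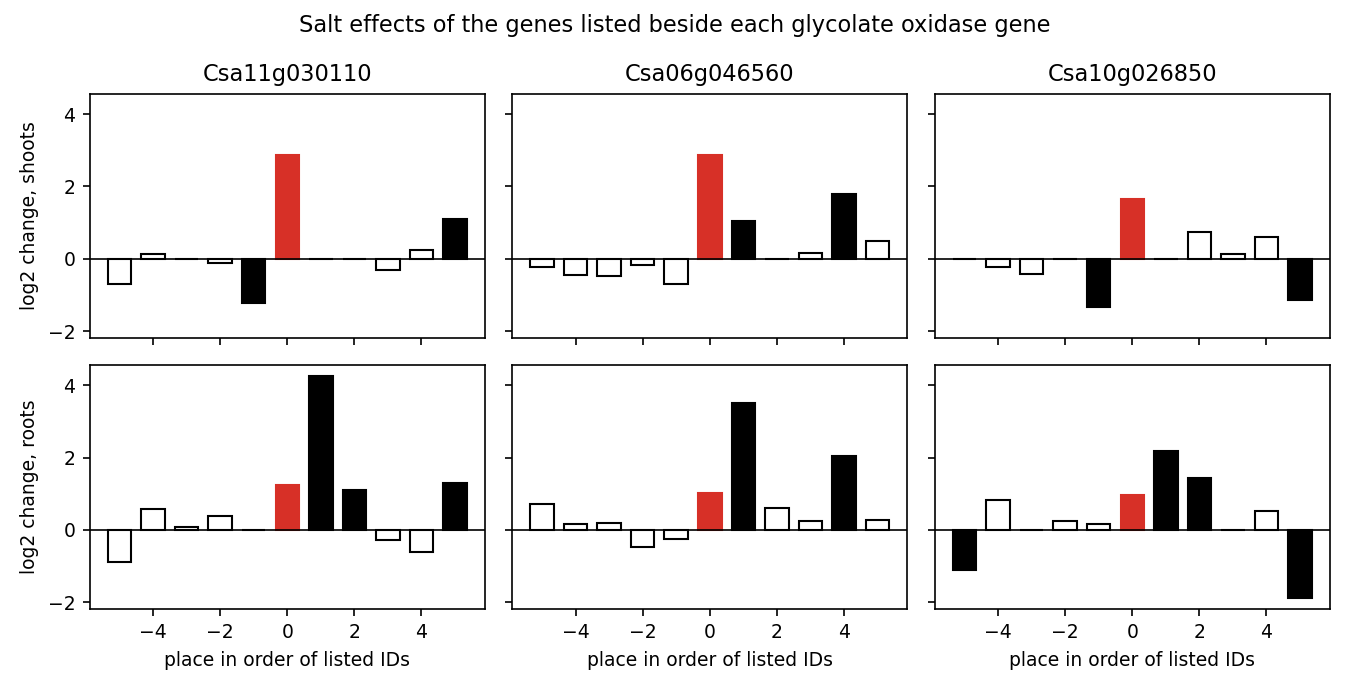
Log2 change with salt of the 5 listed genes on each side of each glycolate oxidase gene, in shoots and in roots. Red bars are the glycolate oxidase genes, black bars are other genes called and white bars are genes not called. In shoots each glycolate oxidase gene stands above the genes listed beside it.

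Over the 5 genes listed on each side of each member, 30 in all, 3 were called higher and 3 lower in salt-treated shoots, and 24 were not called, where 10.8% of all genes tested were called higher and 8.87% lower. In roots 7 were called higher, the NCED2 genes among them, 2 lower, and 21 were not called, against 8.22% of all genes higher and 7.85% lower. The genes listed just before the members were unnamed in the sources used here. They were called higher in control shoots than in control roots, where the members were called lower. Of all 30 listed neighbours, 9 were called higher and 5 lower in control shoots, against 17% and 15.3% of the genes tested. The one before Csa10g026850, for example, had 10, 12 and 9 CPM in salt-treated shoots, against 26, 26 and 28 CPM in control shoots, and 3, 2 and 2 CPM in salt-treated roots, against 2, 2 and 2 CPM in control roots. The genes listed before Csa11g030110 and Csa10g026850 were called lower in salt-treated shoots, and the one before Csa06g046560 was not called.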

How the data were processed

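Reads had been trimmed (Trimmomatic) and mapped with STAR by the authors, using the camelina reference with NCBI transcripts. The authors then scaled the counts to CPM, normalized them with DESeq and ran edgeR. Tool versions were not found in the sources used here. Each deposited value is a score, namely such a CPM rounded to a whole number, so these are not counts, no count model was used, and the depth of each library is unknown.

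Here 0.5 was added and log2 taken, and a gene was kept if 3 libraries or more had a value of 1 or above. limma 3.58.1 in R 4.3.3 fitted 4 groups (trend in the variance, no replicate block), with Benjamini-Hochberg adjustment over all 49928 genes tested. The fit was also run on simulated libraries with independent noise. Changes were given there only in shoots, to genes expressed in the controls of both tissues. The simulation does not bear on genes with lower control levels or on paired libraries. An exact permutation test of 3 libraries against 3 has a smallest p of 0.1.

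The members and lists were chosen with earlier results of these data known. Genes named are the members, the NCED2 genes that follow them, the 10 genes most like them in profile (at most 2 without a name), chosen among genes with a group mean of 5 or more, and the listed genes of photorespiration and the peroxisome. The remaining listed IDs are not analysed here. Alternatives were other pseudocounts, filters and scalings, no moderation of the variance and a replicate block. A fit of each tissue alone and the omission of each library were the others.

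Replicate numbers were checked for pairing. Deviations of same-numbered salt-treated shoots and roots correlated in all 3 pairs (r = 0.144 to 0.399), so the numbers were taken to pair these groups. Same-numbered control shoots and roots also correlated in all 3 pairs, more weakly (r = 0.0532 to 0.251). There replicate 2 of the control shoots correlated more with replicate 1 of the control roots (r = 0.142). Same-numbered salt and control libraries had r of -0.243 to 0.166 in shoots and -0.173 to 0.302 in roots. The permutation of shoot and root labels together paired same-numbered libraries of both treatments.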

Additional observations from a re-analysis of the deposited data

Results flagged for a closer look

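Among the listed genes, 17 had a salt effect that differed between shoots and roots by the test of the difference itself. The limits were on the Benjamini-Hochberg adjusted p (limma) and a log2 difference above 1 in size. Looked at were 3 glycolate oxidase, 3 NCED2, 6 photorespiration and 9 peroxisomal genes, from lists that the study picked on these libraries. Of all genes tested, 6.25% were called with a higher log2 change in shoots and 6.09% with a lower one. The values below are the log2 change with salt in shoots minus that in roots. Glycolate oxidase had 1.62 for Csa11g030110 and 1.82 for Csa06g046560. Catalase 2 had 2.34 for Csa10g007080 and 2.35 for Csa12g008510. Among peroxisomal genes, acyl-CoA oxidase 1 had 1.33 for Csa12g050960, 1.37 for Csa10g028750 and 1.105 for Csa11g032960, and acyl-activating enzymes had 1.54 for Csa15g022860, 1.53 for Csa17g026370 and 1.402 for Csa08g017410. Citrate synthase 3 had 1.07 for Csa06g048940.

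The opposite sign was found for 6 genes. The NCED2 genes had -4.25 for Csa11g030120, -2.46 for Csa06g046570 and -2.20 for Csa10g026860, all of which stood at 0 or 1 CPM in every shoot library, so that these differences restate their rise in roots. The glycine cleavage H protein (Csa03g036840, -1.89) was listed at 0 in every root library, and its difference restates the fall in shoots. Glyoxylate reductase 2 (Csa17g023400) had -1.94 and phosphoglycolate phosphatase (Csa11g076990) had -1.08. The size of the last was under the limit without replicate 1 of the salt-treated shoots or replicate 3 of the control roots.

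Several of these calls were lost when single libraries were left out. For Csa10g028750 this was so for 8 of the 12 libraries (adjusted p = 0.0513 to 0.0601), and for Csa10g026860 for 8 (adjusted p = 0.0612 to 0.0978), replicate 2 of the salt-treated shoots among them (0.0612). For Csa10g026860 the adjusted p was also 0.25 with a pseudocount of 0.1. Csa11g030110 lost the call on 3 omissions (adjusted p = 0.0508 to 0.0563). Csa06g048940 fell under the size limit on 3 omissions, at 0.95 to 0.997, and Csa11g032960 on 1, at 0.944. Without moderation of the variance, Csa12g050960, Csa10g028750, Csa11g030110 and Csa10g026860 missed the limit on p (adjusted p = 0.0525, 0.0646, 0.0583 and 0.0887).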

How the results depend on the processing

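Of 306 values of the glycolate oxidase genes under the alternatives, 297 kept their direction and their side of the limits. Of the rest, 6 lost a call, 3 gained one and 0 reversed. Leaving out a library of 1 tissue cannot move the log2 change with salt in the other tissue. Part of these values, and of those of the other named genes below, could therefore change only in p. Without moderation of the variance 1 member, Csa06g046560, was called for the difference between the tissues, and Csa11g030110 was not (adjusted p = 0.0583). Over the omission of single libraries, 1 to 3 members were called in roots, 1 to 2 for the difference, and 1 to 2 for shoots against roots with salt. The log2 ratio of Csa11g030110 to Csa10g026850 was 0.612 to 0.947 and that of Csa06g046560 to Csa10g026850 was 0.58 to 0.731 over such omissions. In shoots alone these ratios were 1.225 and 1.21 (adjusted p = 0.15 for each), and in roots alone 0.301 and 0.078 (adjusted p = 0.15 and 0.6), where the small number of arrangements sets the p. With shoot and root labels permuted together, chosen after the data were seen, they stayed at 0.763 and 0.644 with an adjusted p of 0.15 each. There too the number of arrangements sets the smallest p. Quantile normalization moved the median of all genes to -0.133 and -0.178 for shoots against roots with and without salt.

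With a replicate block, the members called were 3 for salt in shoots, 2 in roots and 2 for the difference, as without the block. They were 2 for shoots against roots with salt and 3 without salt, again unchanged. The block joined same-numbered libraries of all 4 groups. Same-numbered salt and control libraries had r of -0.243 to 0.166 in shoots and -0.173 to 0.302 in roots. The block therefore does not decide whether the calls hold when only shoots and roots are paired. Over 69 values of named genes the block changed 2 calls. It ended that of the difference for Csa10g026860 (adjusted p = 0.0553) and gave one for the rise of Csa04g059380 in roots (log2 change 2.87, adjusted p = 0.0197). Of 1101 values of the other named genes, 1043 kept their direction and side, 50 lost a call, 8 gained one and 0 reversed. The rise of Csa10g026860 in roots had an adjusted p of 0.0711 with a pseudocount of 0.1. Unknown depth and rounding to whole CPM limit the values of genes near 0 to 5 CPM.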
